A study of Mus musculus with 16 samples.

Results

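The 32 genes described here encode the enzymes that burn fatty acids and ketone bodies, together with 3 genes that set their activity, in the hearts of mice. They were chosen by name, from lists of the carnitine shuttle, mitochondrial and peroxisomal beta-oxidation and ketone body use. All 32 had a row among the 30153 genes of the expression table, and 31 passed the filter on low values that 11415 genes passed. The exception was Eci1. The 16 libraries came from separate animals in 4 groups: C57 adult mice (n = 3), Hap-I aged mice (n = 4), Hap-I aged mice given a western diet (n = 5) and Hap-I adult mice that the sample labels also place on a western diet (n = 4). All mice have the C57/BL6 background. Hap-I mice overexpress the human angiotensin type 1 receptor from a transgene that carries haplotype I of that gene, and the C57 adult mice do not carry it. The promoter that drives the transgene, the ages in months, the sex and the litters are not given in the sources used here. The design text of the series lists the younger Hap-I group without the diet, so the diet of those mice rests on the sample labels alone. There is no aged or western-diet C57 group, so each comparison with C57 adult mice changes genotype together with age, diet or both, and these cannot be told apart.

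Long-chain fatty acids are the main fuel of the adult heart. Acyl-CoA made in the cytosol crosses into the mitochondrion through the carnitine shuttle, and the beta-oxidation spiral then removes acetyl units in repeated rounds of dehydrogenation, hydration, dehydrogenation and thiolysis. Peroxisomes shorten chains the mitochondrion handles poorly. Ketone bodies, made in the liver, are converted back to acetyl-CoA in the heart by Bdh1, Oxct1 and Acat1. The nuclear receptor encoded by Ppara, working with its partner RXR and the coactivator encoded by Ppargc1a, is the best known activator of these genes, and it binds DNA at a direct repeat of AGGTCA with 1 base between the copies.

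That repeat was searched on both strands of the 250 bases before and 50 bases after each start site, in the RefSeq promoter table of build GRCm38.p6. The table held 28 promoters for 26 of the 32 members. The exact repeat was in 0 of the 28 and in 0.0396% of all 32851 promoters, and with up to 2 differing bases it was in 1 of the 28 (3.57%) against 3.86% of all. A single AGGTCA, which the repeat contains, was in 3 of the 28 (10.7%, at Acadm, Acadvl and Cpt1a) against 16.3% of all, and the oestrogen-related receptor element TCAAGGTCA, which overlaps it, was in 0 of the 28 and 0.423% of all. The 250 bases before the start site are printed for 4 members whose windows overlap no annotated exon, 5′ to 3′ on the gene's strand, with the matched bases in capitals. They are Etfa, with the only repeat match, Acadm and Acadvl, each with a single AGGTCA, and Ehhadh, which passed the test in 2 comparisons below and holds none of these letters.
Etfa (chr9:55512244-55512493, minus strand): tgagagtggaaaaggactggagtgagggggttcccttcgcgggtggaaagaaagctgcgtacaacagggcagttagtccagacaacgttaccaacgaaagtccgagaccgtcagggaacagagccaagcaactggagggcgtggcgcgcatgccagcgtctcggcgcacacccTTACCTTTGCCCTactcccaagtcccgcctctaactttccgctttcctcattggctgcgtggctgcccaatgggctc
Acadm (chr3:153944644-153944893, minus strand): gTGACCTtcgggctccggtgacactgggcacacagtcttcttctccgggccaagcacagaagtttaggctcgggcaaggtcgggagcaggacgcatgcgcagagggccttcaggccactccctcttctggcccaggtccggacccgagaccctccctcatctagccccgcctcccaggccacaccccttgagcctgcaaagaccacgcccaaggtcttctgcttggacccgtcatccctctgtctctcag
Acadvl (chr11:70015429-70015678, minus strand): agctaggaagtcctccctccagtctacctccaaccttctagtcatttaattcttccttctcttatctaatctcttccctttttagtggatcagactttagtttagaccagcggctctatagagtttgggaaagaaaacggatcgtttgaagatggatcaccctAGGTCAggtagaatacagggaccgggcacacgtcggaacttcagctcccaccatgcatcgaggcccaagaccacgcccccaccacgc
Ehhadh (chr16:21787835-21788084, minus strand): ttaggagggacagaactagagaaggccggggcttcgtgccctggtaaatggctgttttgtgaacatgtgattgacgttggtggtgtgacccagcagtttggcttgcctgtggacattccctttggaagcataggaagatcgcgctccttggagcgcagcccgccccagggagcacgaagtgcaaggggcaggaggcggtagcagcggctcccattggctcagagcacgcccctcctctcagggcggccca
The Etfa match lay on the strand opposite to the gene, 77 to 65 bases before the start site, with 2 differing bases. The Acadm match lay on the opposite strand at 249 to 244 bases before the start, and the Acadvl match on the gene's own strand at 87 to 82 bases before it. A match is a run of letters, not a site shown to be bound. The exact repeat and the oestrogen-related receptor element are so rare among all promoters that their absence from 28 says little. Bases outside these windows, and members without a promoter in the table, were not searched. Hadha and Hadhb, which encode both subunits of the trifunctional protein, start 273 bases apart on opposite strands by the start sites of the RefSeq promoter table.

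Expression was given as TPM, a share of all transcripts of a library that is corrected for transcript length and keeps no record of depth, so the depth behind each value is unknown. TPM were divided by a factor for each library, and levels below are these scaled TPM. The library factors ran from 0.682 to 1.239. The mitochondrially encoded genes took 31.1% to 46.1% of TPM, and the 3 libraries where they took most (Hap-I aged western diet 4 and 5 and Hap-I adult western diet 2) had the 3 lowest factors. All 10 markers of ventricular muscle passed the filter on low values and summed to 45560 to 64400 scaled TPM, whereas 0 of 4 markers of skeletal muscle passed it. Markers of atrial muscle summed to 230 to 6740 scaled TPM in C57 adult, 97.8 to 5095 in Hap-I aged, 87.2 to 199 in Hap-I aged western diet and 34.9 to 1167 in Hap-I adult western diet hearts. Y-linked transcripts were present in 11 libraries and near 0 in Hap-I aged western diet 1, 2 and 3 and Hap-I adult western diet 1 and 2. Ventricular markers had means of 61150 ± 3293 (SD) in C57 adult and 50690 ± 5609 in Hap-I aged western diet hearts, and the sums overlapped. In the latter 2 of the 10 were called lower, beside 9.57% of all genes. The list was mixed in Hap-I aged hearts. There Myh6 (924 to 1412 against 581 to 769) and Ryr2 (51.1 to 74.1 against 35.75 to 44.2) lay above C57 adult without overlap. Tnni3 (4987 to 6520 against 7212 to 8027) lay below it without overlap. Fibroblast markers summed to 397 to 443 in C57 adult, above all 13 Hap-I hearts, the highest of which had 367. Dcn made up most of that sum, at 280 to 294 in C57 adult hearts. Pdgfra, Lum and Col1a1 of the same list overlapped between C57 adult and every Hap-I group. Col1a2, Col3a1 and Tcf21 lay below C57 adult without overlap in Hap-I aged hearts. Col1a2 and Col3a1 did so in Hap-I adult western diet hearts as well. Adipocyte markers summed to 647 to 832 in C57 adult, 401 to 489 in Hap-I aged, 343 to 633 in Hap-I aged western diet and 468 to 809 in Hap-I adult western diet hearts. Fabp4 alone made up nearly all of that sum, at 633.6 to 829.2 in C57 adult and 388.5 to 488.9 in Hap-I aged hearts. Adipoq and Cidec of the same list reached at most 4.53 and 3.48 in any heart. Both overlapped between C57 adult and every Hap-I group. Ucp1 overlapped too, except in Hap-I aged western diet hearts, where it was lower. The part of these markers in the differences from C57 adult was not tested. In heart tissue, fewer cells of a type and less RNA per cell cannot be told apart.

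The members together took 0.608% to 1.15% of all TPM. Over the genes, levels ran from near 0 to 1814 scaled TPM. Ech1, which shifts double bonds of unsaturated chains, had the highest median over the 16 libraries at 1384 scaled TPM, followed by Hadhb at 1024, Etfb at 664, Acaa2 at 638 and Acadvl at 550.3. At the other end were Ppara at 5.95, Ehhadh at 3.25 and Acot1 at 1.03. Eci1, a mitochondrial enoyl-CoA isomerase, was listed at 0 in 11 of 16 libraries and reached 1.33 at most, although only 2.33% of its 31-base words occur in other genes, and its relative Eci2 stood at a median of 116. The deposited value of Eci1 was therefore not used as a measure of its expression.

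**Figure D1:**
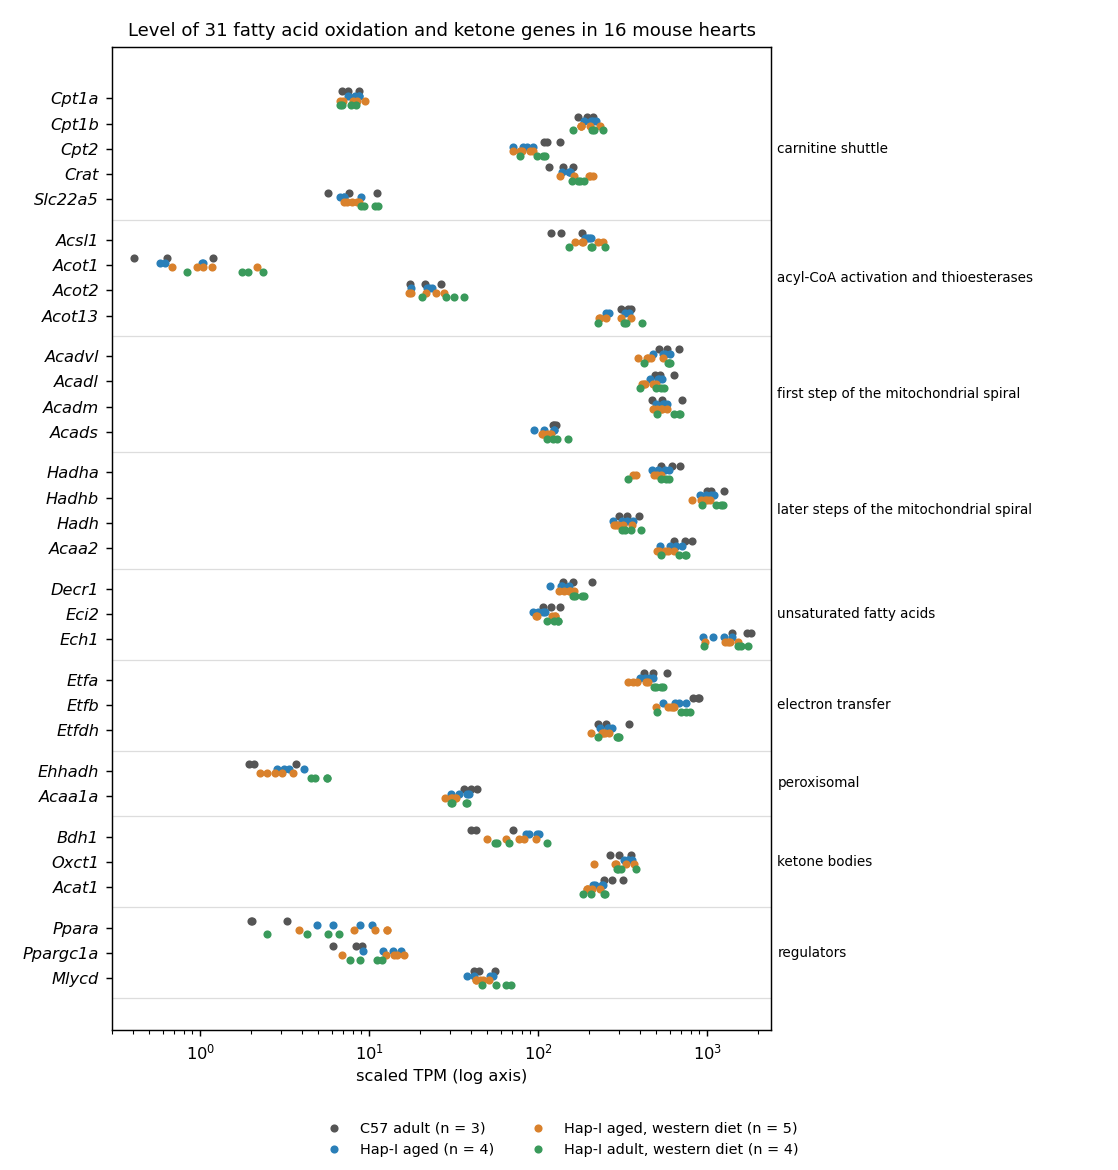
Scaled TPM (log axis) of 31 members in each of 16 hearts, by role, with 1 point per library and the groups in 4 colours. Medians run from 1384 for Ech1 to 1.03 for Acot1, and for most genes the colours overlap. Eci1 is left out because it is listed at 0 in most libraries.

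Differences were tested with limma on log2(scaled TPM + 1) and adjusted by Benjamini-Hochberg over all 11415 genes, and fold changes on that scale understate those of low genes. A member was called where the adjusted p was under 0.05. Where groups are said not to overlap, this only describes the values, and the share of all genes without overlap was not counted. Members printed in this way without a call were chosen after their values were seen. The diet was compared in aged Hap-I hearts, western diet against none. Among 31 members 0 were called higher and 0 lower, beside 0.0788% and 0.0876% of all genes tested, and 0 members had an unadjusted p under 0.05. Their median log2 difference was -0.06, beside 0.00 over all genes. The lowest was -0.35 ± 0.23 (SE) for Bdh1 and the highest 0.27 ± 0.30 for Ppara. For the rate-setting enzyme of the shuttle in muscle, Cpt1b, the difference was -0.09 ± 0.12.

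Age was compared under the diet that the labels give, aged against adult Hap-I mice on western diet. Here 0 of 31 members were called higher and 1, Ehhadh, lower, beside 1.67% higher and 0.718% lower among all genes. The median of the members was -0.19 and 26 of 31 values were negative, beside a median of -0.01 over all genes, and with quantile normalization the median was -0.06. By unadjusted p under 0.05, 1 member was higher and 6 were lower. Aged mice without the diet, set against adult mice on it, had 0 members called in either direction, beside 1.25% higher and 0.885% lower among all genes, while 7 had an unadjusted p under 0.05, all lower. Their median was -0.12, and without scaling it was 0.23 with all genes at 0.27. Age and, by the labels, diet differ together in that comparison.

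Against C57 adult hearts, Hap-I aged hearts had 2 members called higher (Ppara and Bdh1) and 1 lower (Cpt2), beside 7.17% and 4.06% of all genes. Hap-I adult western diet hearts had 1 higher (Ehhadh) and 0 lower, beside 1.95% and 1.5% of all genes. Hap-I aged western diet hearts had 1 higher (Ppara) and 4 lower (Cpt2, Etfb, Acat1 and Acaa1a), beside 12.3% and 9.57% of all genes. The share of members called lower in that last comparison, 4 of 31, is near the background, and the share called higher lies below it. The medians over the members were -0.10, 0.05 and -0.15 in that order, beside -0.01, 0.01 and 0.00 over all genes, and with quantile normalization in place of the library factors they turned to 0.07, 0.17 and 0.04. These comparisons share the 3 C57 adult libraries.

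**Figure D2:**
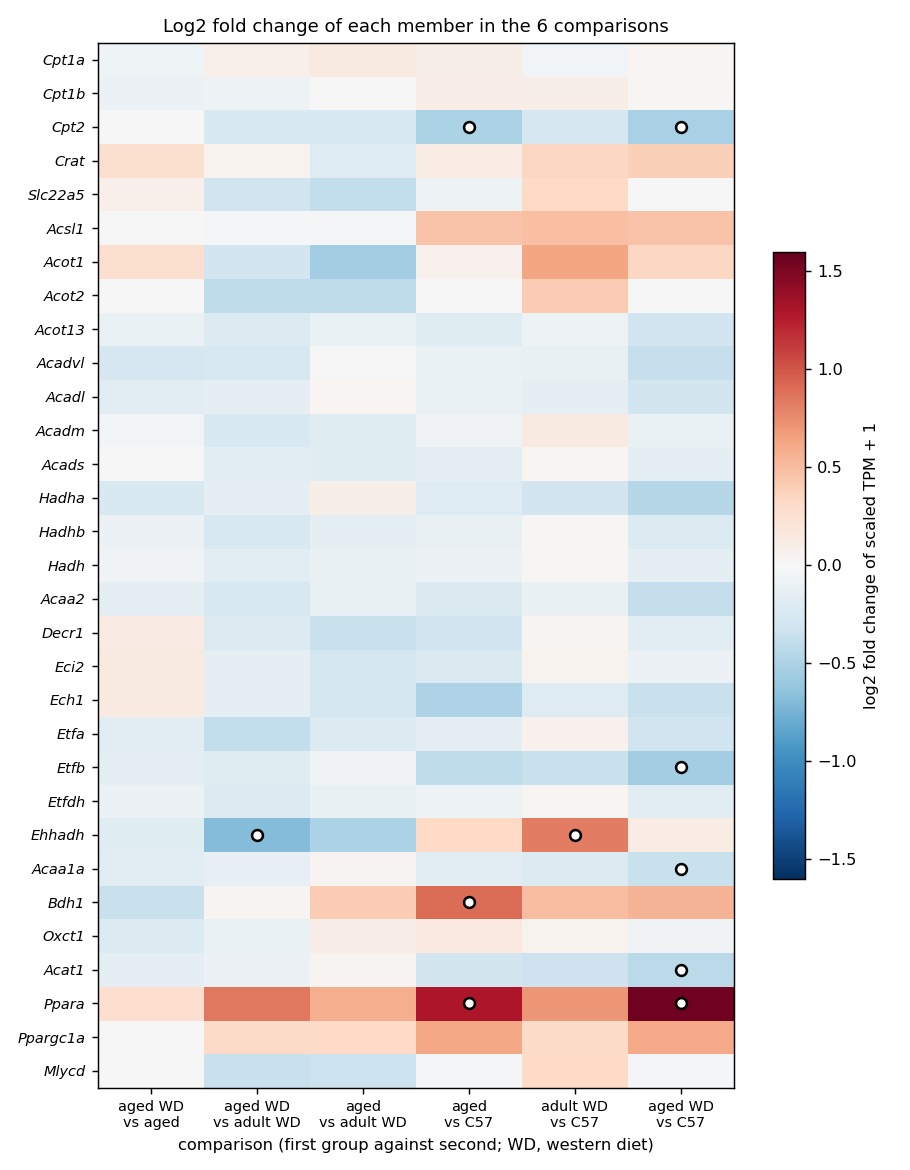
Log2 fold change of scaled TPM + 1 for 31 members (rows) in 6 comparisons (columns), red where the group named first is higher and blue where it is lower, with a white circle on the 10 called values. Most squares are pale. Ppara is the darkest, at 1.29 and 1.56 against C57 adult in the aged groups.

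The carnitine shuttle has 5 members here. Cpt2, the inner-membrane transferase that releases acyl-CoA into the matrix, had 112, 134 and 108 scaled TPM in the 3 C57 adult hearts. It had 86.2, 92.9, 70.8 and 81.3 in Hap-I aged hearts and 79.7, 71.1, 93.0, 78.5 and 89.2 in Hap-I aged western diet hearts. All 9 values of the aged groups lay below all 3 of C57 adult. The 4 Hap-I adult western diet hearts, at 106, 77.7, 98.9 and 110.4, overlapped both sides. Cpt2 fell by 0.51 ± 0.14 (SE, log2) in Hap-I aged (adjusted p = 0.0264) and by 0.51 ± 0.13 in Hap-I aged western diet hearts (adjusted p = 0.0116), 1.42-fold and 1.43-fold below C57 adult. The first call was lost without C57 adult 1 (adjusted p = 0.0696), 2 (0.0925) or 3 (0.0618) and without Hap-I aged 3 (0.0820) or 4 (0.0692), and the second without C57 adult 2 (0.0580). With quantile normalization both were lost (0.187 and 0.126), and without scaling too (0.481 and 0.163). The Hap-I aged call was also lost with length correction (0.0723). The Hap-I aged western diet call was also lost with Y-linked presence as a covariate (0.0656) and with the mean log2 level of Myl7, Myl4, Sln and Mybphl as an atrial covariate (0.0610). It was lost too in libraries with Y-linked transcripts alone (0.0629) and with length and Y-linked presence together (0.131).

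Cpt1a and Cpt1b, the liver and muscle forms of the outer-membrane transferase, were called in 0 of 6 comparisons, with differences from -0.06 to 0.14 and from -0.09 to 0.11. Cpt1a ran from 6.71 to 9.50 scaled TPM and Cpt1b from 162 to 241, and Cpt1b was 24.8 ± 0.752 (SD, n = 3) times Cpt1a in C57 adult, 24.9 ± 1.97 (n = 4) in Hap-I aged, 24.7 ± 3.78 (n = 5) in Hap-I aged western diet and 27.7 ± 3.64 (n = 4) in Hap-I adult western diet hearts. In the annotation 79.7% of the 31-base words of Cpt1b also occur in a read-through gene. The expression table has no row for that gene, so how far the sharing affects the value of Cpt1b is uncertain. Crat, which trades acetyl groups between CoA and carnitine, had a log2 difference of 0.38 ± 0.14 in Hap-I aged western diet against C57 adult (adjusted p = 0.0614). Slc22a5, the carnitine importer of the cell membrane, ran from 5.71 to 11.3 and had its largest difference, -0.39 ± 0.14, in Hap-I aged against Hap-I adult western diet hearts (adjusted p = 0.141).

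Among the 4 genes of acyl-CoA activation and hydrolysis none was called. Acsl1, the main acyl-CoA synthetase of the heart, had 136, 182 and 119 scaled TPM in C57 adult hearts and 195, 199, 189 and 206 in Hap-I aged hearts. Those 2 groups did not overlap, and the log2 difference of 0.46 ± 0.17 had an adjusted p of 0.0983. Its difference from C57 adult was 0.49 ± 0.17 in Hap-I adult western diet (adjusted p = 0.125) and 0.46 ± 0.17 in Hap-I aged western diet hearts (adjusted p = 0.0581). Acot1 and Acot2 are neighbouring genes for a cytosolic and a mitochondrial thioesterase, which share words of sequence, so a part of their reads may have been split between them. Acot2 had a mean of 29.3 ± 6.75 (SD, n = 4) in Hap-I adult western diet and 21.5 to 21.8 in the other groups, and Acot1 reached at most 2.34 in any heart. Acot13, a smaller mitochondrial thioesterase, ran from 228 to 414 and was not called.

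The 4 acyl-CoA dehydrogenases open each round of the spiral, each for its own chain length: Acadvl for very long, Acadl for long, Acadm for medium and Acads for short chains. None was called in any comparison. All 4 had negative log2 values in Hap-I aged western diet against C57 adult, from -0.37 ± 0.14 for Acadvl (adjusted p = 0.0727) to -0.10 ± 0.13 for Acadm, and in the same hearts against Hap-I adult western diet, from -0.25 to -0.14 (3 of 4 negative without scaling). With quantile normalization 2 of the 4 were above 0 in the first of these comparisons (median -0.01 in place of -0.22). Their summed level was 1842 ± 274 (SD, n = 3) scaled TPM in C57 adult, 1717 ± 136 (n = 4) in Hap-I aged, 1547 ± 95.0 (n = 5) in Hap-I aged western diet and 1803 ± 244 (n = 4) in Hap-I adult western diet hearts. Of the words of Acadvl, 33.2% occur also in an annotated transcript of the neighbouring Dvl2.

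The later steps are run by the trifunctional protein (Hadha, Hadhb), by Hadh for shorter chains and by the thiolase Acaa2. None of these 4 was called. In Hap-I aged western diet against C57 adult hearts Hadha stood at -0.46 ± 0.18 (adjusted p = 0.0821) and Acaa2 at -0.38 ± 0.14 (adjusted p = 0.0587). Acaa2 had 737, 817 and 640.0 scaled TPM in C57 adult and 502, 521, 635, 564 and 587 in Hap-I aged western diet hearts, which did not overlap. All 4 were negative there, with a median of -0.30, but with quantile normalization 2 were above 0 and the median was 0.02. Hadhb was 1.80 ± 0.183 (SD, n = 3) times Hadha in C57 adult and 1.90 ± 0.0402 (n = 4) in Hap-I aged hearts, and 2.14 ± 0.404 (n = 5) and 2.26 ± 0.349 (n = 4) in the aged and adult western diet groups. The ratio ranged from 1.61 to 1.98 in C57 adult and from 1.62 to 2.56 in Hap-I aged western diet hearts, so the groups overlapped.

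Decr1, Eci2 and Ech1 prepare unsaturated chains for the spiral, and none of the 3 was called. Their lowest group means were in Hap-I aged hearts, at 136 ± 14.5 for Decr1, 102 ± 7.28 for Eci2 and 1175 ± 203 for Ech1 (SD, n = 4). Against Hap-I adult western diet hearts the differences were -0.36 ± 0.12 for Decr1 (adjusted p = 0.113), -0.28 ± 0.11 for Eci2 (adjusted p = 0.159) and -0.28 ± 0.19 for Ech1 (adjusted p = 0.394), all 3 negative also with quantile normalization.

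Etfa and Etfb encode the subunits of the electron transfer flavoprotein, which takes electrons from the dehydrogenases, and Etfdh passes them to ubiquinone. Etfb had 877, 829.6 and 894 scaled TPM in C57 adult hearts and 501, 629.5, 585, 609 and 636 in Hap-I aged western diet hearts, a fall of 0.55 ± 0.14 on the log2 scale (1.47-fold, adjusted p = 0.0131). In Hap-I aged hearts it had 683, 754, 547 and 644, and in Hap-I adult western diet hearts 699, 745, 791 and 507. All 13 Hap-I values lay below all 3 of C57 adult, though the differences of -0.41 ± 0.15 in Hap-I aged (adjusted p = 0.0874) and -0.36 ± 0.15 in Hap-I adult western diet hearts (adjusted p = 0.188) did not pass. The call was lost without C57 adult 1 (adjusted p = 0.050) or C57 adult 3 (0.0556), and with quantile normalization the value was -0.21 (adjusted p = 0.163). Etfb is a short transcript of at most 893 bases, and 49.9% of its words occur in other annotated genes. The gene that shares most of them, 47.3%, has no row in the expression table. Short and long transcripts shifted against each other between libraries: the rank correlation across genes of a library's deviation with transcript length was -0.330 to -0.112 in C57 adult and 0.0585 to 0.469 in Hap-I aged hearts. In Hap-I aged western diet hearts, where Etfb was called, the correlation was -0.280 to 0.5015, which overlapped C57 adult. Corrected for length, Etfb stood at -0.38 (adjusted p = 0.0179) in Hap-I aged western diet and at -0.18 (adjusted p = 0.320) in Hap-I aged hearts. The first value did not pass with length and Y-linked presence corrected together (-0.38, adjusted p = 0.0557), nor did the uncorrected one in libraries with Y-linked transcripts alone (-0.48, adjusted p = 0.138).

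Etfa did not pass in any comparison. Its largest difference was -0.39 ± 0.11 in Hap-I aged western diet against Hap-I adult western diet hearts (adjusted p = 0.0666), with 364, 437, 383, 445 and 341 scaled TPM against 496, 484, 531 and 544. These groups did not overlap. Etfdh ran from 206 to 344 in all hearts, with differences between -0.21 and 0.04.

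Of the peroxisomal enzymes, Ehhadh, a bifunctional enzyme of the hydration and dehydrogenation steps and a textbook target of Ppara, was highest in Hap-I adult western diet hearts, at 5.66, 4.55, 4.79 and 5.62 scaled TPM. It had 1.93, 3.67 and 2.09 in C57 adult hearts, 4.10, 3.35, 3.15 and 2.84 in Hap-I aged hearts, and 3.03, 2.26, 2.76, 3.52 and 2.47 in Hap-I aged western diet hearts. Every Hap-I adult western diet heart lay above all 12 others. Ehhadh was 0.82 ± 0.16 higher on the log2 scale than in C57 adult (adjusted p = 0.0118), and it fell by 0.70 ± 0.14 in aged against adult mice on the diet (adjusted p = 0.0200). Against Hap-I adult western diet, Hap-I aged hearts stood at -0.50 ± 0.14 (adjusted p = 0.0795). The levels are low and rest on few libraries. The call against C57 adult was lost without C57 adult 1 (adjusted p = 0.0754) or 3 (0.0649), and the call between ages without Hap-I adult western diet 1 (0.0754) or 3 (0.0521). In libraries with Y-linked transcripts alone the values were 0.83 (adjusted p = 0.0926) and -0.64 (0.359). Both calls were also lost without scaling (0.139 and 0.252) and with only the groups compared in the fit (0.0819 and 0.0838).

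Acaa1a, the peroxisomal thiolase, had 39.8, 36.3 and 43.5 scaled TPM in C57 adult hearts and 30.9, 30.5, 32.5, 28.2 and 32.4 in Hap-I aged western diet hearts. It fell by 0.36 ± 0.10 (log2, adjusted p = 0.0248), and the groups did not overlap. The other groups, 30.3 to 38.9 in Hap-I aged and 30.5 to 37.9 in Hap-I adult western diet hearts, overlapped both. The call was lost without C57 adult 1 (adjusted p = 0.0755) or 3 (0.119), with quantile normalization (-0.25, adjusted p = 0.124) and without scaling (0.247). It was also lost with the Y-linked (0.0604) or atrial (0.104) covariate, in libraries with Y-linked transcripts alone (0.123) and with length and Y-linked presence together (0.0539). Of its words 23.4% occur in other genes, most of them in its copy Acaa1b.

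Of the 3 ketone body genes, Bdh1 rose and Acat1 fell against C57 adult, in different comparisons, and Oxct1 was not called. Bdh1, which oxidizes 3-hydroxybutyrate, had 39.9, 42.8 and 71.3 scaled TPM in C57 adult hearts and 101, 87.9, 84.3 and 99.1 in Hap-I aged hearts. It was 0.89 ± 0.26 higher on the log2 scale in Hap-I aged hearts (1.85-fold, adjusted p = 0.0371), with no overlap. The western diet groups spread widely, with 97.1, 77.1, 82.6, 64.9 and 49.7 in aged and 55.3, 56.9, 67.3 and 113.5 in adult Hap-I mice, and overlapped both. Without C57 adult 1 the adjusted p was 0.156, without C57 adult 2 it was 0.104, and without any 1 of the 4 Hap-I aged libraries it was 0.0538 to 0.0906. Of these 7 libraries only C57 adult 3 could be left out with the call kept. The call was also lost with the atrial covariate (0.0634), with no filter on low values (0.0798), without scaling (0.131) and with length and Y-linked presence together (0.0548).

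Acat1, the mitochondrial acetoacetyl-CoA thiolase, had 275, 317 and 245 scaled TPM in C57 adult hearts and 195, 208, 198, 231 and 195 in Hap-I aged western diet hearts. It fell by 0.43 ± 0.12 (log2, adjusted p = 0.0159), and the groups did not overlap. In Hap-I aged hearts, at 243, 238, 212 and 217, the difference was -0.29 ± 0.12 (adjusted p = 0.134). The call was lost without C57 adult 1 (adjusted p = 0.0519) or 2 (0.0797) and with quantile normalization (-0.19, adjusted p = 0.221). It was also lost without scaling (0.0952), with the Y-linked (0.0583) or atrial (0.0618) covariate, in libraries with Y-linked transcripts alone (0.161) and with length and Y-linked presence together (0.0554). Oxct1, which activates acetoacetate and is the committed step of ketone use, ran from 214 to 379 scaled TPM, and its differences lay between -0.22 and 0.16. Oxct1 was 6.39 ± 2.07 (SD, n = 3) times Bdh1 in C57 adult, 3.68 ± 0.273 (n = 4) in Hap-I aged, 4.06 ± 0.324 (n = 5) in Hap-I aged western diet and 4.60 ± 0.891 (n = 4) in Hap-I adult western diet hearts. The C57 adult ratios, 4.21 to 8.33, overlapped those of both western diet groups.

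**Figure D3:**
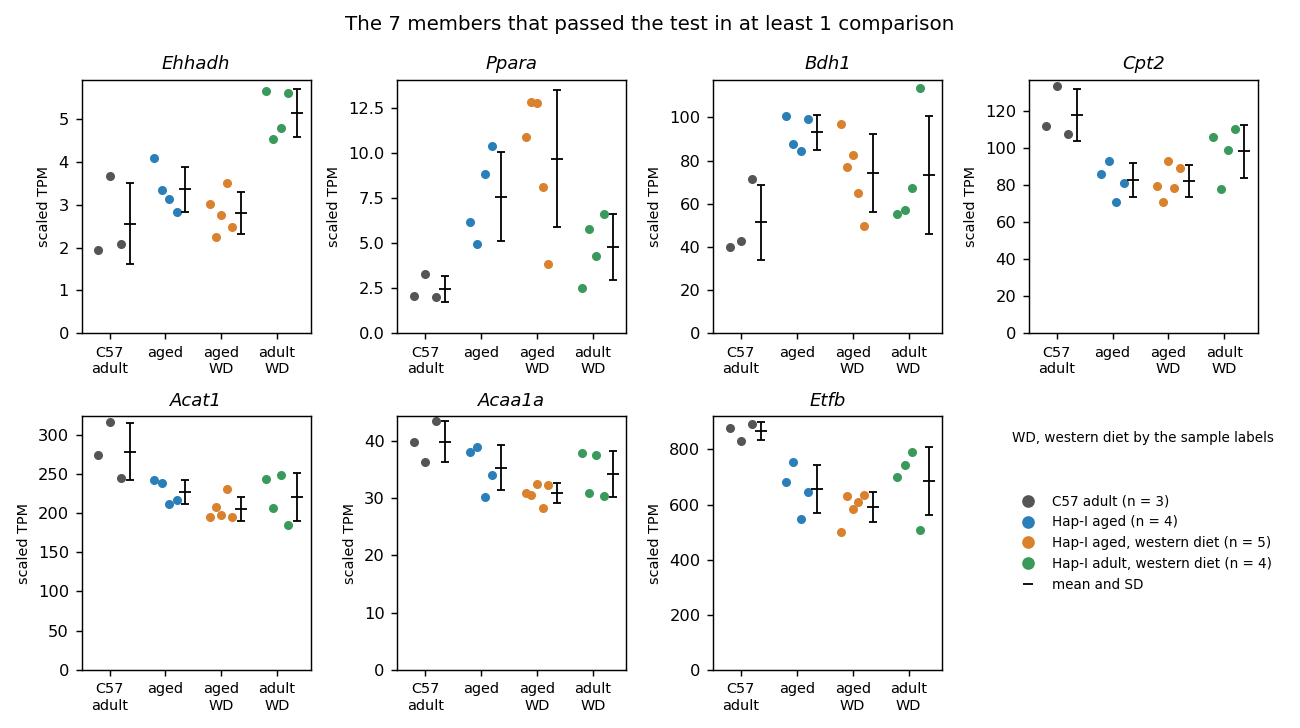
Scaled TPM of the 7 members called in at least 1 comparison, 1 point per heart, with the mean and SD of each group beside the points and axes from 0. Ehhadh is highest in Hap-I adult western diet hearts, at 4.55 to 5.66, and Ppara is lowest in C57 adult hearts, at 2.01 to 3.26. Cpt2, Acat1, Acaa1a and Etfb have their highest means in C57 adult hearts.

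Ppara had the largest change of any member. It had 2.03, 3.26 and 2.01 scaled TPM in C57 adult hearts, 6.15, 4.92, 8.81 and 10.4 in Hap-I aged hearts, and 10.9, 12.8, 12.7, 8.09 and 3.82 in Hap-I aged western diet hearts. All 9 values of the aged groups lay above all 3 of C57 adult. It rose by 1.29 ± 0.34 on the log2 scale in Hap-I aged (2.45-fold, adjusted p = 0.0264) and by 1.56 ± 0.33 in Hap-I aged western diet hearts (2.94-fold, adjusted p = 0.00480). Hap-I adult western diet hearts, at 2.47, 5.75, 4.27 and 6.60, differed from C57 adult by 0.71 ± 0.34 (adjusted p = 0.261). The call in Hap-I aged western diet hearts was kept without each library in turn, with adjusted p up to 0.0277, and the call in Hap-I aged hearts was lost without C57 adult 1 (0.0970) or 3 (0.109) or Hap-I aged 3 (0.0739) or 4 (0.0818), without scaling (0.0685) and with no filter on low values (0.0624).

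The 3 aged western diet hearts with the highest Ppara were the 3 without Y-linked transcripts. In libraries with Y-linked transcripts alone the difference of that group from C57 adult was 0.97 (adjusted p = 0.0929). The 2 adult western diet hearts without them had 2.47 and 5.75, and the other 2 had 4.27 and 6.60. The sums of the atrial markers, given above, were higher in C57 adult than in Hap-I aged western diet hearts without overlap. The atrial covariate was instead the mean log2 level of Myl7, Myl4, Sln and Mybphl, so it left out the other atrial markers in those sums. With that covariate Ppara differed by 1.37 (adjusted p = 0.0704) in Hap-I aged western diet and by 1.20 (adjusted p = 0.0666) in Hap-I aged hearts. The part of the atrial markers in the result was not tested beyond these fits.

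Ppargc1a, the coactivator, had 8.33, 9.12 and 6.12 scaled TPM in C57 adult hearts and 12.0, 9.24, 13.9 and 15.4 in Hap-I aged hearts. The groups did not overlap, and the difference of 0.62 ± 0.24 had an adjusted p of 0.104. In Hap-I aged western diet hearts it was 0.61 ± 0.23 (adjusted p = 0.0658). Mlycd, which breaks down malonyl-CoA, the inhibitor of the outer-membrane transferase, had its highest mean, 59.2 ± 9.88 (SD, n = 4), in Hap-I adult western diet hearts and means of 45.8 to 47.2 in the other 3 groups, with no call.

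A further 90 genes of the pathway were listed by role, and 77 of them could be tested. Among these 1 was called higher and 0 lower for diet in aged hearts, 0 and 1 for age on the diet, 1 and 4 for Hap-I aged against Hap-I adult western diet, and 6 and 3, 4 and 2, and 10 and 8 against C57 adult for Hap-I aged, Hap-I adult western diet and Hap-I aged western diet. For the comparisons within Hap-I the shares of all genes were 0.0788% and 0.0876%, 1.67% and 0.718%, and 1.25% and 0.885% in that order. Against C57 adult these counts are read beside the shares of all genes given above, 7.17% and 4.06%, 1.95% and 1.5%, and 12.3% and 9.57%, and the first and the last pair are near them. Of the 13 tested targets of PPAR outside the members, Pdk4, the kinase that shuts off pyruvate oxidation, stood at 207 ± 36.3 (SD, n = 4) scaled TPM in Hap-I adult western diet, 111 ± 40.1 (n = 5) in Hap-I aged western diet, 72.2 ± 36.7 (n = 3) in C57 adult and 33.7 ± 4.95 (n = 4) in Hap-I aged hearts. It rose by 1.62 ± 0.26 (log2) with the diet in aged hearts (adjusted p = 0.0203), but that call was lost without any 1 of the 4 Hap-I aged libraries or Hap-I aged western diet 3 (adjusted p up to 0.0871) and with the atrial covariate (0.0668).

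In Hap-I aged against Hap-I adult western diet hearts Pdk4 fell by 2.58 ± 0.28 (adjusted p = 0.000169), Angptl4, an inhibitor of lipoprotein lipase, by 2.04 ± 0.28 (adjusted p = 0.00219), Ucp3, a mitochondrial carrier, by 1.84 ± 0.27 (adjusted p = 0.00347), and the lipid droplet protein gene Plin2 by 0.48 ± 0.09 (adjusted p = 0.0163). In that comparison 4 of 13 targets were called lower, beside 0 of 31 members and 0.885% of all genes. Of the targets 12 of 13 were negative (median -0.43, and -0.35 with quantile normalization). Ehhadh, a member, was also highest in Hap-I adult western diet hearts, as given above. The calls of Pdk4, Angptl4 and Ucp3 were kept without each library in turn, but in libraries with Y-linked transcripts alone Angptl4 (adjusted p = 0.0793) and Ucp3 (0.145) did not pass. The Plin2 call was kept in 7 of 13 alternatives, with a value of -0.14 without scaling, and was lost without 3 of 8 libraries. It was lost without scaling, with quantile normalization, with the Y-linked covariate, in libraries with Y-linked transcripts alone and with both length corrections.

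Among the 16 other regulators 8 were called higher and 0 lower in Hap-I aged western diet against C57 adult (median 0.31, and 0.31 with quantile normalization), and 4 and 0 in Hap-I aged hearts (median 0.27). Of the Hap-I aged calls, those of Esrrg, Ncor1 and Prkaa2 were lost without scaling and with length correction. In Hap-I aged western diet hearts the calls of Ppard, Rxra, Perm1, Prkaa2 and Klf15 were lost with the atrial covariate. None of these passed when hearts lacking Y-linked transcripts were left out. Ppard, Rxra, Perm1 and Prkaa2 were also lost without scaling, and Rxra and Prkaa2 with length correction. The Ppargc1b call there was kept in 12 of 12 alternatives. Ppargc1b, a coactivator related to Ppargc1a, rose by 1.07 ± 0.15 in Hap-I aged western diet hearts (3.32 ± 0.663 against 1.04 ± 0.10 scaled TPM, adjusted p = 0.000411). In Hap-I aged hearts Ppargc1b rose by 0.72 ± 0.15 (adjusted p = 0.0109). Ncor1, a corepressor, rose by 0.53 ± 0.10 (adjusted p = 0.00291) and the receptor gene Esrrg by 0.63 ± 0.13 (adjusted p = 0.00398) in Hap-I aged western diet hearts. Both of these Ppargc1b calls were kept without each library in turn, while its call in Hap-I adult western diet hearts (0.61, adjusted p = 0.0429) was lost without 5 of 7 libraries, and the Ncor1 call was lost with correction for transcript length. Decr2, the peroxisomal relative of Decr1, was higher in all 3 Hap-I groups than in C57 adult, by 1.03 ± 0.17 in Hap-I aged (adjusted p = 0.00291), 1.08 ± 0.17 in Hap-I adult western diet (adjusted p = 0.00288) and 0.99 ± 0.16 in Hap-I aged western diet hearts (adjusted p = 0.000872), and Pccb, of the propionyl-CoA carboxylase that handles the last unit of odd chains, fell by 0.63 ± 0.10 in Hap-I aged western diet hearts (adjusted p = 0.000771). Without scaling the calls of Ncor1, Esrrg and Pccb in Hap-I aged western diet hearts and of Decr2 in Hap-I adult western diet hearts were lost, and that of Esrrg also among only the libraries that had Y-linked transcripts and with the atrial covariate.

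**Figure D4:**
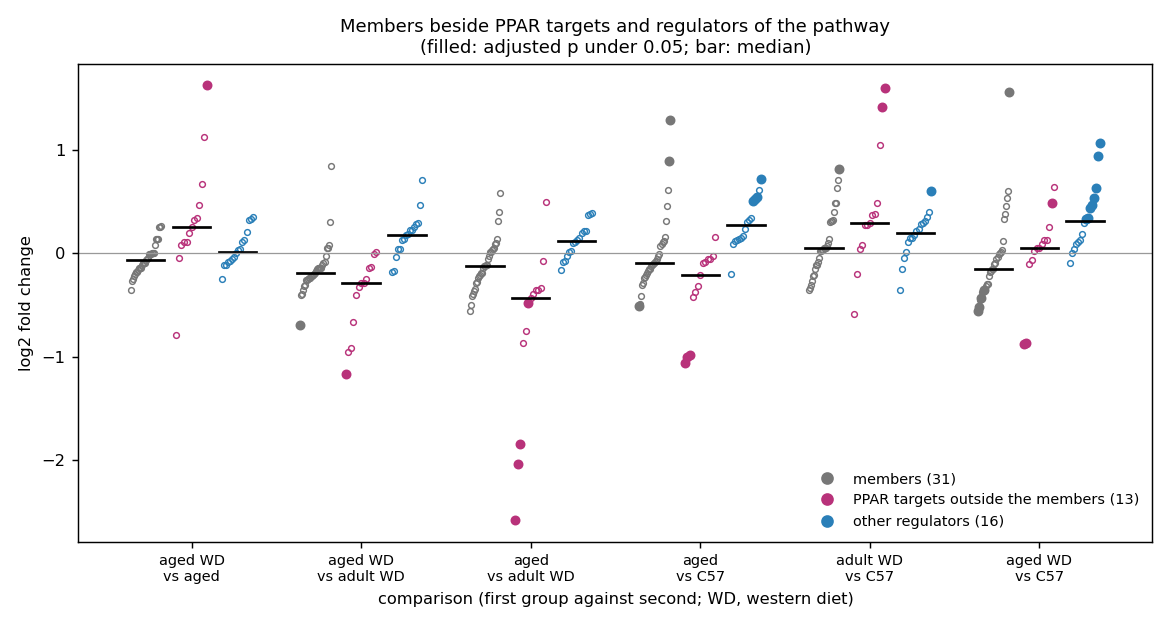
Log2 fold change in 6 comparisons for the 31 tested members (grey), 13 PPAR targets outside the members (magenta) and 16 other regulators (blue), with filled points where the adjusted p was under 0.05 and a bar at each median. The targets reach -2.58 in Hap-I aged against Hap-I adult western diet, where 0 members were called, and against C57 adult the regulators lie mostly above 0 (8 of 16 in Hap-I adult western diet hearts without scaling). The last 3 comparisons share the C57 adult libraries.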

How the data were processed

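The authors deposited TPM per Ensembl gene for 16 hearts; the submitters' processing notes name kallisto, DESeq2 and GRCm38, without versions. Per the labels' protocols, polyadenylated RNA was sequenced with a strand-keeping kit. Symbols came from the reference tables, and member positions and words of 31 bases from GENCODE M21. From these TPM, genes reaching 1 TPM in 3 or more libraries (11415 of 30153) were kept, divided by median-of-ratios factors, and tested as log2(scaled TPM + 1) in limma 3.58.1 (R 4.3.3), with all 4 groups in 1 model, a variance trend, two-sided tests and Benjamini-Hochberg adjustment. No counts were used. Scripts were tested on simulated data. No 2 libraries were identical (correlations 0.956 to 0.990). The members, lists and tests were chosen with earlier results of these data known. Values in every library are printed for members that passed in at least 1 comparison, with a few others chosen after their values were seen; from the other lists, the called genes with the smallest p. Alternatives covered scaling, filter, pseudocount, covariates, the libraries entered and, added after seeing the data, transcript length. Protein sequences were not analysed here.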

Additional observations from a re-analysis of the deposited data

Results flagged for a closer look

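Of 93 groups of 4 or 5 hearts in which 1 member's highest or lowest value was set against the rest, 3 held a value that stood apart, and chance alone at 1 in 20 gives about 4.7. Acadvl was lowest in Hap-I adult western diet 2, at 420.8 scaled TPM, with the other 3 hearts of the group at 583 to 599. Etfdh was lowest in the same heart, at 226.4, with the others at 293 to 299. Crat was lowest in Hap-I aged 3, at 138.5, with the others at 153 to 155. Hap-I adult western diet 2 also had the lowest library factor of the 16, 0.682, and the highest share of mitochondrially encoded TPM, 46.1%. The part of these in its values was not tested.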

How the results depend on the processing

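No called value of a named gene turned its direction under the alternatives run. Counts of calls over all genes are given first and those among members after, comparison by comparison, wherever they moved by over 1.5 times. Diet in aged hearts (19 and 0 calls) went to 63 with quantile normalization, 8 with a filter at 5 TPM, 44 with Y-linked presence (sex) as covariate, 5 with an atrial covariate, 140 in libraries with Y-linked transcripts alone, 73 with length correction and 58 with length and sex together, with 0 members throughout. Age on the diet (273 and 1) went to 22 and 0 without scaling, 144 and 0 at 5 TPM, 5 and 0 with only the groups compared, 104 with the atrial covariate, 12 and 0 in Y-linked libraries, 169 with length and 132 with length and sex. Hap-I aged against Hap-I adult western diet (244 and 0) went to 162 without scaling, 135 at 5 TPM, 422 and 1 with only the groups compared, 78 with sex, 12 in Y-linked libraries and 69 with length and sex. Hap-I aged against C57 adult (1282 and 3) went to 225 and 0 without scaling, 2431 and 6 with only the groups compared, 730 and 1 with the atrial covariate, 831 with length, 763 and 1 with length and sex, and 1 member without a filter. Hap-I adult western diet against C57 adult (394 and 1) went to 118 and 0 without scaling, 68 and 0 with only the groups compared, 139 with sex, 100 with the atrial covariate, 70 and 0 in Y-linked libraries, 619 with length, 184 with length and sex, and 0 members at 5 TPM, where Ehhadh is not tested. Hap-I aged western diet against C57 adult (2496 and 5) went to 614 and 2 without scaling, 1376 with only the groups compared, 1392 and 2 with sex, 667 and 1 with the atrial covariate, 853 and 0 in Y-linked libraries, 1254 and 1 with length and sex, and 3 members with quantile normalization.

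Without each library in turn the counts over all genes ran from 4 to 92, 28 to 572, 38 to 737, 372 to 1183, 78 to 484 and 1253 to 2672 in that order, and those among members from 0 to 0, 0 to 2, 0 to 1, 0 to 3, 0 to 2 and 2 to 8. Without scaling the median of all genes shifted by up to 0.27 on the log2 scale (Hap-I aged against Hap-I adult western diet, members 0.23). Other counts stayed within 1.5 times. The causes were not tested. No paired analysis was possible because the labels give no replicate numbers shared between groups. With 3 to 5 hearts a group and TPM of unknown depth, changes of low genes such as Ehhadh, Acot1 and Ppara carry the most uncertainty.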
